A study of Homo sapiens with 6 samples.

Results

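Cohesin is a protein ring that holds the sister copies of each chromosome together from DNA replication until anaphase. Its core is made of SMC1A, SMC3 and the kleisin RAD21, to which a STAG1 or a STAG2 subunit binds. ESCO2 and sororin (CDCA5) make the ring stable on DNA during S phase, the shugoshins guard it at centromeres in early mitosis, and separase (ESPL1) finally cuts RAD21 once its inhibitor securin (PTTG1) has been destroyed. The genes described here are 10 members of this system, taken by symbol from the 63129 genes listed in the deposited table, namely SMC3, RAD21, STAG1, STAG2, ESPL1, PTTG1, SGOL1, SGOL2, CDCA5 and ESCO2.

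RNA was sequenced from 6 cultures of ERRAS cells, IMR90 human lung fibroblasts that carry a retroviral fusion of oncogenic H-RasV12 with the ligand-binding domain of the estrogen receptor. In 3 cultures (control) the fusion was left inactive, and in 3 cultures (Ras-induced) it was switched on for 4 days with tamoxifen, given in the labels as 100 nM. All 6 were arrested in mitosis with 1 μM DME, which blocks the kinesin Eg5, and only detached cells were collected, so both groups carry the construct and both saw the drug. No tamoxifen-treated culture without the construct was analysed here, so an effect of tamoxifen alone cannot be told apart from that of Ras. By the study's account the experiment was repeated independently 3 times, but the labels do not tie a library to a repeat.

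Levels are FPKM, fragment counts scaled to transcript length and to library size, as the authors deposited them. HRAS, the gene activated in the construct, measured 1174, 1176 and 1140.3 FPKM in control and 1439, 1847 and 1473 FPKM in Ras-induced libraries, without separating the endogenous gene from the fusion. Its log2 fold change was 0.44 (SE 0.11, limma adjusted p = 0.0431), with adjusted p from 0.0193 to 0.166 over the alternative settings and above the threshold without any 1 library (0.0598 to 0.156). The steps between low FPKM values put the depth of the libraries between 0.846 and 1.17 times that of the first control library, and absolute depth was not used here. Of 10 fibroblast markers, all were measured in every library and 3 were altered (limma adjusted p at or under 0.05), COL1A2, COL5A1 and THY1, all lower, beside 5.67% of all tested genes lower (summed level 5578 to 6515 FPKM in control, 4128 to 5517 FPKM in Ras-induced libraries). The COL5A1 call was kept in 6 of 13 alternatives, with limma adjusted p up to 0.147. FAP, of the same list, measured 24.9 to 57.9 FPKM in control and 62.7 to 68.1 FPKM in Ras-induced libraries without passing the test (limma adjusted p = 0.0869). None of the 5 leukocyte markers reached the level needed for a test, and they summed to 0.288 FPKM or less. Of the endothelial markers, PECAM1 was listed at 0 throughout, while TEK alone passed 1 FPKM, at 14.4 to 16.4 FPKM in control and 4.72 to 5.29 FPKM in Ras-induced libraries, and was altered. Of the epithelial markers, CDH1 stayed at or under 0.224 FPKM, and EPCAM, too low for the test, measured 0.88 to 1.80 FPKM in control and 0.167 to 0.424 FPKM in Ras-induced libraries, without overlap. KRT5 reached 18.7 FPKM and KRT14 13.2 FPKM, and the list, with 3 of 5 genes tested and 0 altered or at an unadjusted p under 0.05 in limma, summed to 22.7 to 36.2 FPKM in control and 21.8 to 25.5 FPKM in Ras-induced libraries.

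All 10 genes passed the filter of a mean of at least 1 FPKM and were tested with the 13993 genes that did so. A gene is called altered when its limma adjusted p, corrected over all of those, is at or under 0.05. Ras induction lowered 4 of the 10 (ESPL1, ESCO2, RAD21 and STAG1) by this rule and raised none. Over all tested genes 16.7% were altered, 5.67% lower and 11.0% higher. The median log2 fold change of the 10 genes was -0.24, beside 0.10 for all tested genes, and 8 of the 10 had a value below 0, as did 37.3% of tested genes. In 6 of the 10 genes, SMC3 and PTTG1 being the other two, every Ras-induced value lay under every control value, as in 12.8% of tested genes (39.9% did not overlap in either direction). After quantile normalization, which set the median of all genes to 0.01, 5 of the 10 were altered, all lower, beside 7.93% of tested genes lower and 7.46% higher. After upper-quartile scaling 5 were again altered and lower, beside 7.87% lower and 6.58% higher. When any 1 library was left out, between 0 and 3 of the 10 were called (limma), beside 6.15% to 13.4% of tested genes, and 5 or 6 had an unadjusted p under 0.05, beside 26.5% to 32.1%. With all libraries 33.6% of tested genes had an unadjusted p under 0.05.

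**Figure D1:**
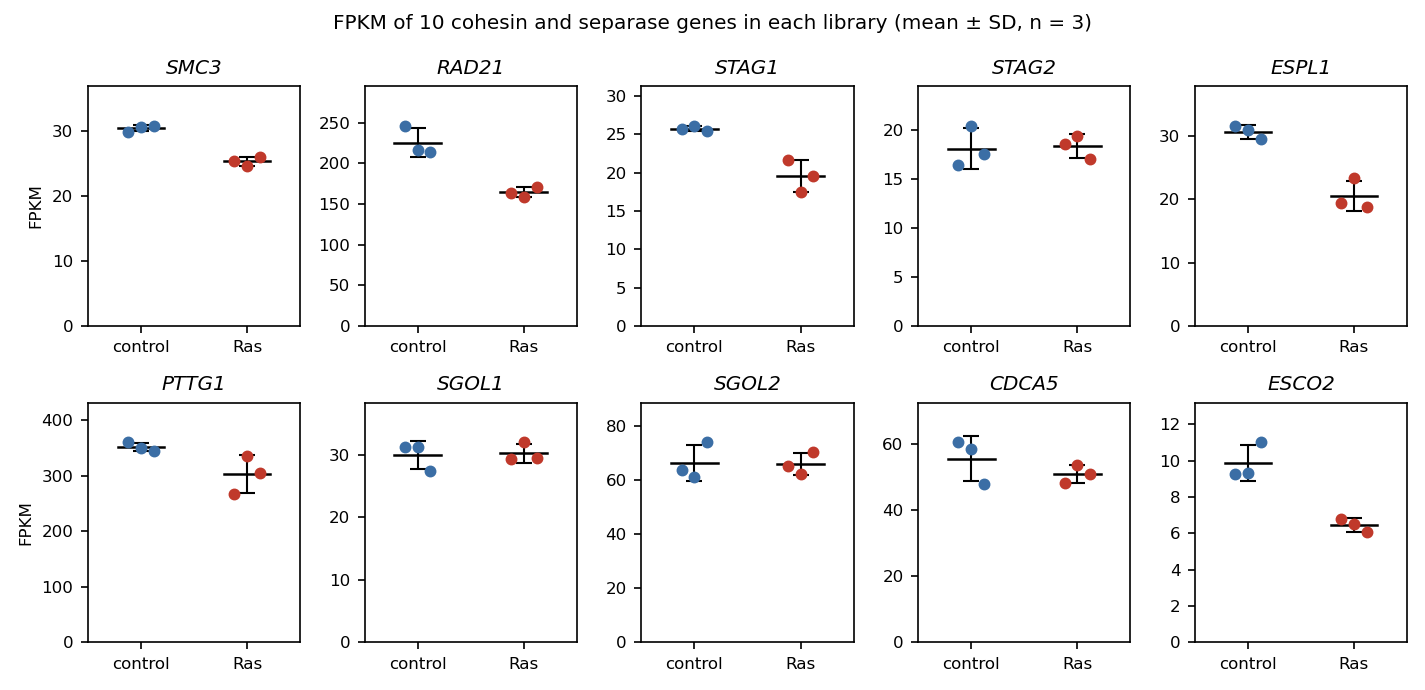
FPKM of each of the 10 genes in the 3 control (blue) and 3 Ras-induced (red) libraries, each panel with its own axis from 0. Points are libraries, horizontal lines the group means and bars the SD (n = 3). The groups do not overlap for SMC3, RAD21, STAG1, ESPL1, PTTG1 and ESCO2, and overlap for STAG2, SGOL1, SGOL2 and CDCA5.

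The levels differed widely between the genes. In control cells the order of mean FPKM, which is a level per length of transcript, was PTTG1 (351), RAD21 (226), SGOL2 (66.3), CDCA5 (55.5), ESPL1 (30.6), SMC3 (30.4), SGOL1 (30.0), STAG1 (25.8), STAG2 (18.1) and ESCO2 (9.86). ESPL1, SMC3 and SGOL1 could not be ordered, since their control values overlapped. All other neighbours in that order had no overlapping control values. In Ras-induced cells these 3 genes did not overlap and stood in the reverse order, with SGOL1 highest and ESPL1 lowest, while the values of STAG1 and STAG2 overlapped.

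The promoters of these genes were inspected because cell cycle genes often carry a CHR element (TTTGAA or TTCGAA) and CCAAT boxes before the start. RefSeq windows (GRCh38.p14, from 250 bases before to 50 after the start) were at hand for 8 of the 10 genes, all but RAD21 and ESCO2. The last 120 bases before the start are shown 5′ to 3′ for separase and securin, for sororin, and for STAG1 as a ring gene, with CHR, CCAAT and E2F core (TTCGCGC or TTGGCGC) matches on either strand in capitals.
ESPL1 (chr12:53268179-53268298, plus strand): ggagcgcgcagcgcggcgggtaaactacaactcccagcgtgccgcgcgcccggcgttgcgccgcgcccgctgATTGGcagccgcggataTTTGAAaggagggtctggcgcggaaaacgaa
PTTG1 (chr5:160421735-160421854, plus strand): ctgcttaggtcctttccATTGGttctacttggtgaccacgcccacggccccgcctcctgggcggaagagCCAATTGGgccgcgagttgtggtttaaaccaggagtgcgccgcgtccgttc
CDCA5 (chr11:65084041-65084160, minus strand): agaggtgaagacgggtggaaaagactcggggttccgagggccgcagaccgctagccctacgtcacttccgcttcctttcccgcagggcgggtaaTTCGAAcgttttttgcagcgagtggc
STAG1 (chr3:136752379-136752498, minus strand): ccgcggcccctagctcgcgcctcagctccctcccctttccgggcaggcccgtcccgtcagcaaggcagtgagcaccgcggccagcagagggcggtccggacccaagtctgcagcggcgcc

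ESPL1 held a CCAAT box on the opposite strand at base -48 and a CHR at base -31 from its start. CDCA5 held a CHR at base -26, and the first of the windows of PTTG1 had 3 CCAAT matches, a pair of them overlapping. A CHR was also found in the windows of SGOL1 and SMC3, so 4 of the 8 genes had one, against 16.4% of all 35116 windows. CCAAT stood in 6 of the 8 genes (34.6% of all windows) and an E2F core in 2, STAG2 and CDCA5 (5.06%). Some genes have more than 1 window, so the share of genes and that of windows are not the same measure. The 4 genes with a CHR included 1 that was altered (ESPL1) and 3 that were not (SMC3, SGOL1 and CDCA5). These matches describe the letters only.

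Among the ring subunits, RAD21, the kleisin that separase cuts, is on chromosome 8 of GRCh37 (117858173 to 117887015, minus strand). It measured 246.0, 217 and 214 FPKM in control and 164, 159 and 171 FPKM in Ras-induced libraries. The highest Ras-induced value thus lay well below the lowest control value. RAD21 fell by 27.0% on the means, with a log2 fold change of -0.45 (SE 0.08, limma adjusted p = 0.0161). The call was lost when control replicate 2 (adjusted p = 0.0538), Ras-induced replicate 1 (0.0583) or Ras-induced replicate 3 (0.0549) was left out of the limma fit. UTP23, whose exons share 4.01% of the exonic bases of RAD21 on the other strand, measured 7.12 to 8.80 FPKM in control and 9.68 to 12.6 FPKM in Ras-induced libraries.

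SMC3, which carries one of the ATPase heads of the ring (chromosome 10, 112327442 to 112365806), measured 29.8, 30.6 and 30.7 FPKM in control and 25.3, 24.6 and 25.9 FPKM in Ras-induced libraries. The spread within each group was small and the groups were clearly apart. Its mean was 16.8% lower in Ras-induced cells, a log2 fold change of -0.26 (SE 0.07, 95% interval -0.42 to -0.09). The limma adjusted p of 0.0501 was just above the threshold. It was 0.0198 after quantile normalization, 0.0222 after upper-quartile scaling, 0.0417 with a filter of 5 FPKM and 0.0435 without a filter, all under the threshold. In the other 9 of the 13 alternatives it stayed above, at 0.0604 with a pseudocount of 0.1, 0.0767 without a trend, 0.076 with the replicate block and 0.0642 to 0.119 with 1 library left out.

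STAG1 and STAG2 are alternative subunits that bind RAD21 in separate cohesin complexes. STAG1 (chromosome 3, 136055078 to 136471245) measured 25.7, 26.1 and 25.4 FPKM in control and 21.6, 17.5 and 19.6 FPKM in Ras-induced libraries. The 3 control values were nearly equal, and the Ras-induced values were all lower and more spread. STAG1 fell by 24.1%, with a log2 fold change of -0.39 (SE 0.09, limma adjusted p = 0.0381). This call was one of the less stable, since 5 of the 13 alternatives kept it and the adjusted p ranged from 0.0143 to 0.119. It was lost without control replicates 1, 2 or 3 (limma adjusted p = 0.104, 0.119 and 0.0721) and without Ras-induced replicates 2 or 3 (0.0725 and 0.112). The exons of PCCB, on the other strand, cover 21.2% of the exonic bases of STAG1, and the library kit named in the labels does not mark strand. PCCB measured 9.90 to 15.7 FPKM in control and 13.0 to 16.1 FPKM in Ras-induced libraries.

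STAG2 is on chromosome X (123094062 to 123556514). Its values were 16.4, 20.4 and 17.5 FPKM in control and 18.6, 19.4 and 17.0 FPKM in Ras-induced libraries, and the groups overlapped. The log2 fold change was 0.02 (95% interval -0.23 to 0.27, limma adjusted p = 0.914), and it turned to -0.08 after quantile normalization.

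Because a ratio within a library does not move when the library is scaled, the subunits were also set against each other. The STAG1 to STAG2 ratio of FPKM was 1.57, 1.28 and 1.45 in control and 1.16, 0.901 and 1.15 in Ras-induced libraries. STAG1 thus exceeded STAG2 in every control library, and the Ras-induced ratios lay around equality. The log2 ratio differed by -0.42 between groups (exact two-sided permutation p = 0.1, the smallest that 3 libraries against 3 allow, and 0.133 adjusted over 4 ratios). The RAD21 to SMC3 ratio was 8.24, 7.09 and 6.97 in control and 6.49, 6.44 and 6.62 in Ras-induced libraries, a difference of -0.19 in log2 (exact permutation p = 0.1, 0.133 adjusted). Without control replicate 1 that difference was -0.11. These ratios did not overlap between groups, but the exact test over 3 libraries a group cannot bring either past 0.05.

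The remaining core subunit, SMC1A, was not among the 10 genes and stood in the wider list of cohesin genes. It measured 65.2, 66.3 and 72.8 FPKM in control and 44.4, 40.8 and 41.4 FPKM in Ras-induced libraries, with wide separation. SMC1A fell by 38.0%, a log2 fold change of -0.68 (SE 0.08, limma adjusted p = 0.00449), and was called in all 13 alternatives. A second entry with the same symbol, on an alternative sequence, was listed at 0 and was not used.

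Separase and securin form the switch that opens the ring. ESPL1 (chromosome 12, 53662083 to 53687422), the protease, measured 31.6, 30.9 and 29.5 FPKM in control and 19.5, 23.3 and 18.8 FPKM in Ras-induced libraries. All Ras-induced values lay below all control values. ESPL1 fell by 33.0%, with a log2 fold change of -0.56 (SE 0.10, limma adjusted p = 0.0153). Leaving out control replicate 1 (adjusted p = 0.0627), control replicate 2 (0.0669), Ras-induced replicate 1 (0.0624) or Ras-induced replicate 3 (0.0614) ended the limma call.

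PTTG1 (chromosome 5, 159848862 to 159855746), which holds separase inactive until the anaphase-promoting complex marks it for destruction, had the highest level of the 10 genes. It measured 359.8, 349 and 345 FPKM in control and 267, 336 and 305 FPKM in Ras-induced libraries. The Ras-induced values were lower but spread more widely, so that the second lay close to the controls. The mean was 13.8% lower, with a log2 fold change of -0.22 (95% interval -0.45 to 0.01) that did not pass the test (limma adjusted p = 0.168, and 0.0564 to 0.325 over the alternatives). It was -0.13 without Ras-induced replicate 1 and -0.33 after upper-quartile scaling. The near copies PTTG2 and PTTG3P, to which reads of PTTG1 could be assigned, were listed at no more than 6.78e-05 and 0.221 FPKM.

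The RNA of securin stood higher relative to that of separase in every Ras-induced library than in any control library. The PTTG1 to ESPL1 ratio was 11.4, 11.3 and 11.7 in control and 13.7, 14.4 and 16.3 in Ras-induced libraries, a difference of 0.36 in log2 (exact two-sided permutation p = 0.1, 0.133 adjusted over 4 ratios). CCNB1, the cyclin that also restrains separase, and CDC20, the activator that starts securin destruction, were not altered, with log2 fold changes of -0.19 (limma adjusted p = 0.196) and -0.18 (0.171). In both, every Ras-induced value lay under every control value, as in 12.8% of tested genes.

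**Figure D2:**
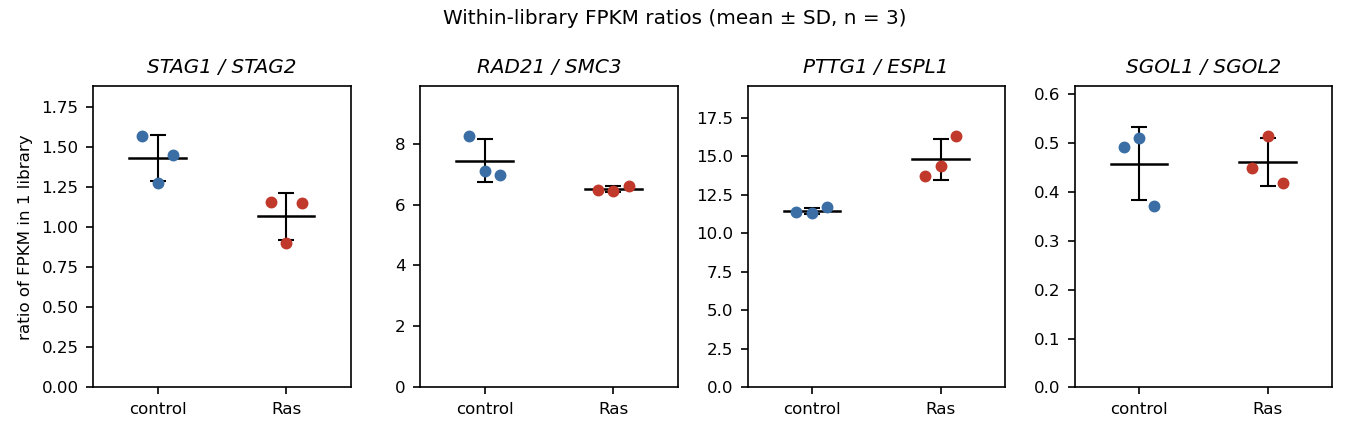
Ratio of the FPKM of a pair of genes in each of the 3 control (blue) and 3 Ras-induced (red) libraries, with the mean and SD (n = 3), each axis from 0. The STAG1 to STAG2 and RAD21 to SMC3 ratios are lower and the PTTG1 to ESPL1 ratio higher in every Ras-induced library, while the SGOL1 to SGOL2 ratio overlaps.

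The shugoshins, which bring the phosphatase PP2A to centromeres and so shield cohesin there, showed no detectable difference. SGOL1, now named SGO1 (chromosome 3, 20202085 to 20227698), measured 31.3, 31.2 and 27.5 FPKM in control and 29.3, 32.0 and 29.5 FPKM in Ras-induced libraries. SGOL2, now SGO2 (chromosome 2, 201374731 to 201448819), measured 63.7, 61.2 and 73.8 FPKM in control and 65.0, 62.2 and 70.4 FPKM in Ras-induced libraries. The groups overlapped in both genes, in SGOL2 with all Ras-induced values inside the control range. The log2 fold changes were 0.01 for SGOL1 (95% interval -0.19 to 0.22, limma adjusted p = 0.933) and -0.01 for SGOL2 (95% interval -0.24 to 0.23, limma adjusted p = 0.973). Neither of the shugoshins reached an unadjusted p of 0.05 in limma, and after quantile normalization their log2 fold changes were -0.10 and -0.09. The SGOL1 to SGOL2 ratio averaged 0.458 ± 0.0745 (SD, n = 3) in control and 0.461 ± 0.0484 (SD, n = 3) in Ras-induced libraries (exact permutation p = 0.9, also after adjustment).

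Cohesion is set up in S phase by ESCO2, which acetylates SMC3, and by sororin, which then keeps the release factor WAPAL off the ring. ESCO2 (chromosome 8, 27629466 to 27670157) had the lowest level of the 10 genes, at 9.26, 9.34 and 11.0 FPKM in control and 6.80, 6.51 and 6.08 FPKM in Ras-induced libraries. The groups did not overlap. ESCO2 fell by 34.4%, with a log2 fold change of -0.54 (SE 0.10, limma adjusted p = 0.0192). The call was lost in the limma fit without control replicate 1 (adjusted p = 0.0617), control replicate 2 (0.0726), or any Ras-induced replicate (0.0602, 0.0561 and 0.0832).

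CDCA5 (chromosome 11, 64833772 to 64851636) measured 60.4, 58.4 and 47.8 FPKM in control and 48.2, 53.5 and 51.0 FPKM in Ras-induced libraries. The third control library lay below all Ras-induced libraries, and the groups overlapped. The log2 fold change of -0.12 (95% interval -0.37 to 0.14) did not pass the test (limma adjusted p = 0.479). It was -0.22 without control replicate 3 (limma adjusted p = 0.0979), -0.05 without control replicate 1, -0.08 without control replicate 2 or Ras-induced replicate 1, and -0.22 and -0.23 after quantile normalization and upper-quartile scaling. The S phase partners of cohesion thus differed in their calls, but the difference between ESCO2 and CDCA5 was not tested.

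**Figure D3:**
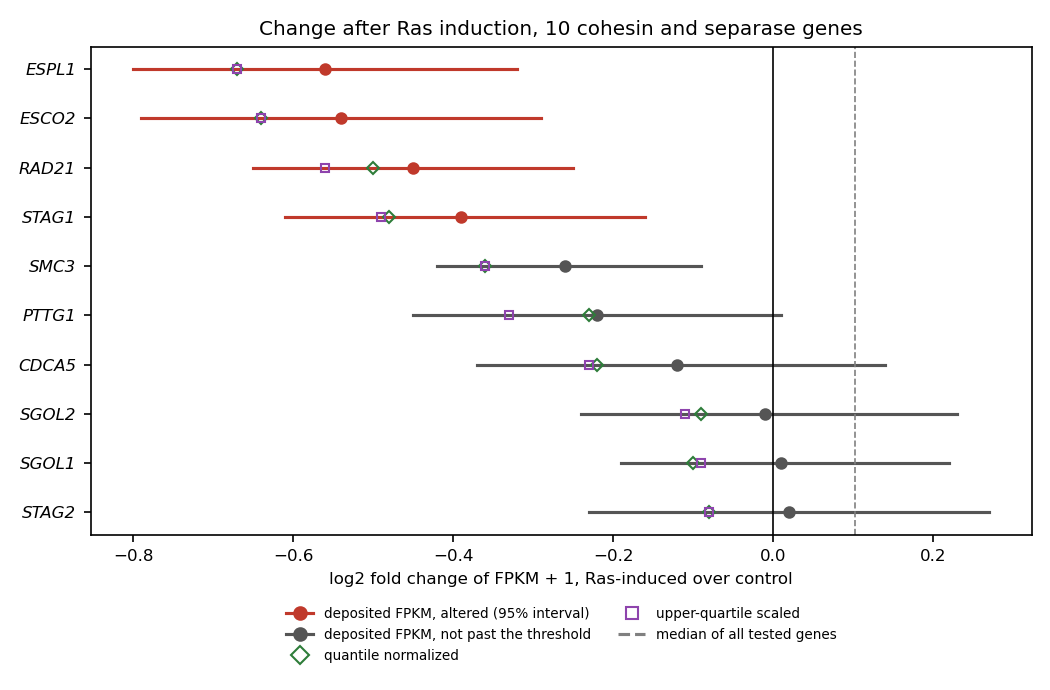
Log2 fold change of FPKM + 1 (Ras-induced over control) of the 10 genes from the limma fit, with 95% intervals, ordered from the largest fall, in red where altered. Open symbols give the same value after quantile normalization (diamond) and upper-quartile scaling (square), and the dashed line the median of all tested genes (0.10). Of the 10 genes, 8 have values below 0 under all 3 scalings, SGOL2 only just, and STAG2 and SGOL1 change sign with the scaling.

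Genes of G1/S and S phase, and of G2 and mitosis, the latter including the phase of arrest, were compared in the same libraries. Of 20 G1/S and S phase genes, 19 were tested and 10 were altered, all lower, beside 5.67% of all tested genes, with a summed level of 926 to 997 FPKM in control and 595 to 741 FPKM in Ras-induced libraries. Of 15 genes of G2 and mitosis, 10 were altered, all lower, beside the same 5.67%, with sums of 1628 to 1668 and 1186 to 1261 FPKM. Their part in the falls of ESCO2, ESPL1, RAD21 and STAG1 was not tested. By the study's account, microscopic scoring found a large majority of the collected cells to be mitotic in both groups. In such bulk samples, fewer cells that express a gene and less of its RNA per cell cannot be told apart.

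Of the wider list of 38 other cohesin-related genes, 33 were tested and 6 were altered, 3 lower and 3 higher, a share near the 16.7% of all tested genes. Their median log2 fold change was -0.08. Besides SMC1A, BUB1, the kinase whose histone mark recruits shugoshin, fell from a mean of 98.7 to 79.9 FPKM (log2 fold change -0.30, SE 0.08, limma adjusted p = 0.0418), and PLK1, which drives cohesin off chromosome arms, fell from 214 to 178 FPKM (-0.27, SE 0.07, limma adjusted p = 0.0475). The calls of BUB1 and PLK1 were kept in 5 and 3 of the 13 alternatives. The BUB1 call was lost without any 1 library (limma adjusted p = 0.0574 to 0.0988), and that of PLK1 without any except control replicate 3 (0.065 to 0.129). Loading and release factors gave no call. NIPBL and MAU2, the loader, had log2 fold changes of -0.02 and 0.04, PDS5A and PDS5B of -0.09 and -0.12, and WAPAL, which opens the ring, of 0.19 (limma adjusted p = 0.148). Among the release factor and PDS5 genes 0 of 3 were altered in limma, 1 of them with an unadjusted p under 0.05, beside 33.6% of all tested genes.

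All 3 genes of the wider list that were altered and higher encode subunits of PP2A, the phosphatase that shugoshin recruits. Of 9 PP2A genes 3 were altered, all higher, beside 11.0% of all tested genes. The scaffold PPP2R1B measured 19.5, 20.2 and 17.1 FPKM in control and 33.1, 26.6 and 29.2 FPKM in Ras-induced libraries (log2 fold change 0.62, SE 0.11, limma adjusted p = 0.0154). The regulatory B56 subunit gene PPP2R5A measured 15.3, 15.1 and 14.6 FPKM in control and 23.3, 21.6 and 25.7 FPKM in Ras-induced libraries (0.61, SE 0.09, limma adjusted p = 0.00874). Its paralog PPP2R5B measured 14.0, 15.1 and 12.0 FPKM in control and 19.8, 20.2 and 21.0 FPKM in Ras-induced libraries (0.54, SE 0.10, limma adjusted p = 0.0167). None of the 3 overlapped between groups, as in 27.1% of tested genes that were higher without overlap, and PPP2R5A was called in all 13 alternatives, PPP2R1B and PPP2R5B in 9 each. The PPP2R1B call was lost without control replicates 1 or 2 (limma adjusted p = 0.0554 and 0.052) or Ras-induced replicates 1 or 3 (0.054 and 0.0641), and that of PPP2R5B without control replicate 1 (0.0599) or any Ras-induced replicate (0.0609, 0.0525 and 0.0738). The other B56 genes PPP2R5C, PPP2R5D and PPP2R5E had log2 fold changes of -0.07, -0.07 and -0.17 without a call, as did the more abundant scaffold PPP2R1A at 0.17 (limma adjusted p = 0.122).

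ESCO1, the acetyltransferase paralog of ESCO2, measured 3.37, 3.18 and 3.35 FPKM in control and 4.98, 3.62 and 4.33 FPKM in Ras-induced libraries. HDAC8, which removes the SMC3 acetyl mark, measured 17.8, 15.0 and 13.8 FPKM in control and 19.7, 17.9 and 19.7 FPKM in Ras-induced libraries. In both, all Ras-induced values lay above all control values, as in 27.1% of tested genes, but neither passed the test (log2 fold changes 0.30 and 0.29, limma adjusted p = 0.180 and 0.128). Of 7 replication fork factors that help establish cohesion, 0 were altered in limma and 3 had an unadjusted p under 0.05, beside 33.6% of all tested genes. TIMELESS came closest, at -0.44 (limma adjusted p = 0.0681, and 0.0408 after quantile normalization). SMC1B, RAD21L1 and STAG3, the ring subunits of meiosis, stayed under 1 FPKM in every library, and REC8, the meiotic kleisin, averaged 2.69 FPKM in control and 2.43 FPKM in Ras-induced cells.

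**Figure D4:**
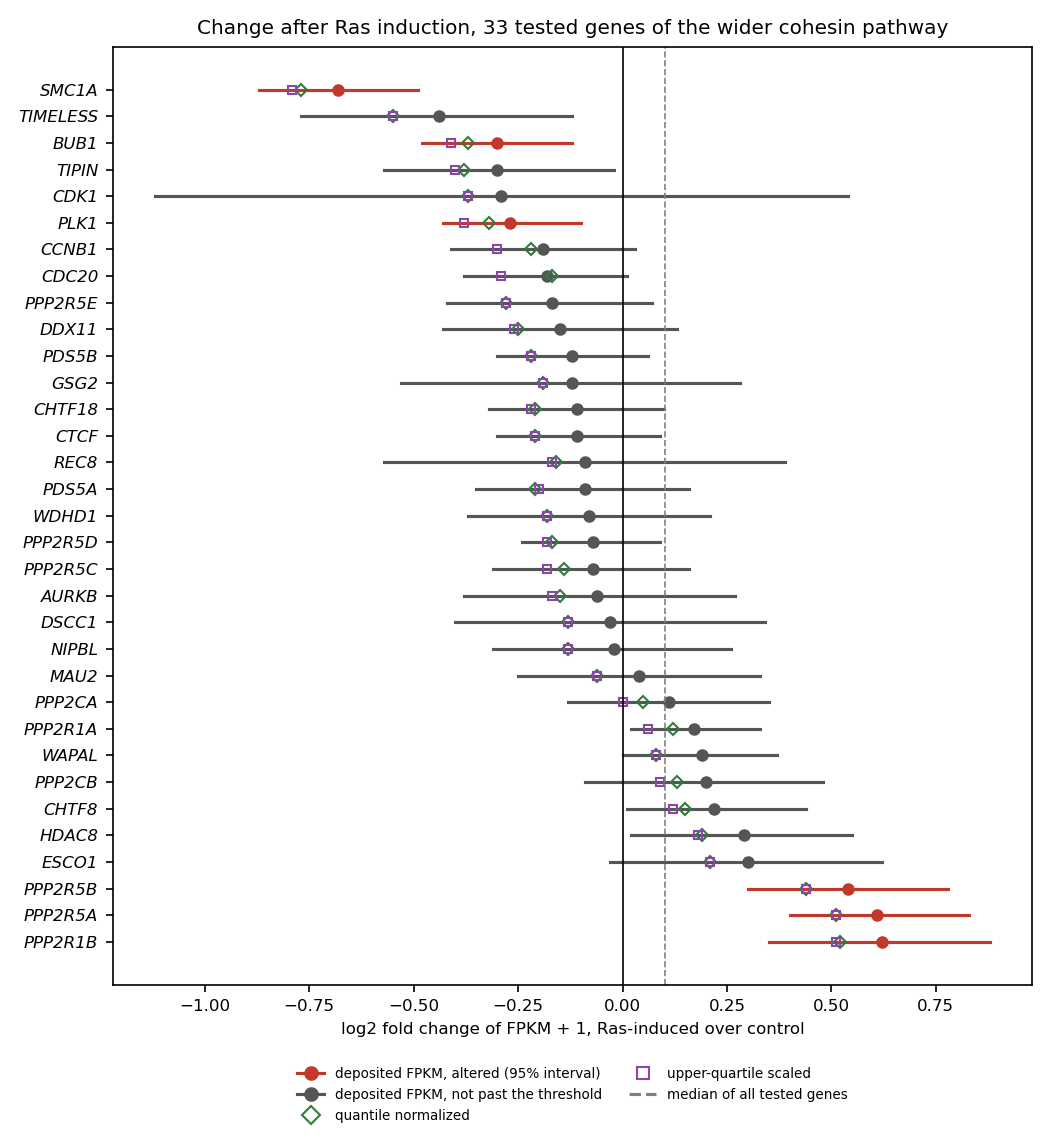
Log2 fold change of FPKM + 1 (Ras-induced over control) of the 33 tested genes of the wider cohesin list from limma, with 95% intervals, in red where altered. Open symbols give quantile normalized (diamond) and upper-quartile scaled (square) values, and the dashed line the median of all tested genes. SMC1A lies lowest at -0.68, and PPP2R5B, PPP2R5A and PPP2R1B lie highest, between 0.54 and 0.62.

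Outside these lists, the protein-coding genes whose levels followed ESPL1 most closely over the 6 libraries were SHCBP1 (Pearson's r = 0.999), GABBR2 (0.9983) and KIF23 (0.9952), out of 10959 genes compared. With 6 libraries in 2 groups, such values mostly carry the difference between the groups and are given as a description. SHCBP1 measured 85.9 to 89.7 FPKM in control and 67.2 to 76.6 FPKM in Ras-induced libraries. In each of the 3 genes Ras-induced replicate 2 was the highest of its group, as it was for ESPL1. That likeness follows from choosing the genes by their correlation with ESPL1.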

How the data were processed

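The authors trimmed reads with Trim Galore 0.3.0, aligned the paired ends to hg19 with Tophat2 and Ensembl 73 junctions, and computed the deposited FPKM with Cufflinks. Any scaling between libraries is not given in the sources used here. Columns give the group and a number, not the sample, so libraries served as replicates of their group. Left out were 120 rows with more than 6 values, the 18 unnamed columns that hold them and 1 repeated header line. A deposited cuffdiff table (group FPKM, fold changes, p-values) was not used.

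Genes with a mean of 1 FPKM or more were fitted as log2(FPKM + 1), pseudocount 1, by limma 3.58.1 (trend, two-sided, Benjamini-Hochberg) in R 4.3.3. The procedure was tested on simulated data. Intervals are 95% limma intervals. Fold changes on this scale understate those of low genes. Ratios used exact permutation. Alternatives were other pseudocounts, filters and scalings, no trend, a replicate block and each library left out. Where a symbol repeats, the row of highest mean was taken. Positions and exon overlaps come from GENCODE 44 (GRCh37, equal to hg19), which is later than the annotation of the authors, and promoters from RefSeq. Tables were made in Python 3.11.15 with scipy 1.17.1, numpy 2.4.6 and pandas 2.3.3, and plots with matplotlib 3.10.9.

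The 10 genes and the lists were chosen with earlier results of these data known. The text names all 10, SMC1A, the largest altered rises and falls of the wider list (up to 3 each), PTTG2 and PTTG3P, HRAS, and the 3 genes most like ESPL1, the altered gene of the 10 with the largest change on the log2(FPKM + 1) scale (ESCO2 fell more in percent and with a pseudocount of 0.1). Other genes were chosen after their values were seen.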

Additional observations from a re-analysis of the deposited data

How the results depend on the processing

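Leaving out 1 library, which also leaves fewer samples, changed the counts most. The limma count of altered genes among the 10 was 1, 0 and 3 without control replicates 1, 2 and 3, and 1, 2 and 0 without Ras-induced replicates 1, 2 and 3, so it ranged from 0 to 3, beside 4 with all libraries. For the wider list the range was 2 to 5, beside 6, and for all tested genes 860 to 1872, beside 2336. Without a filter on low values, which more than doubled the genes tested, 1518 were altered over all genes, and 4 of the 10. The count among the 10 was between 3 and 5 under the other alternatives. The deposited FPKM had a median log2 fold change of 0.10 over all genes, and quantile normalization brought it to 0.01 and upper-quartile scaling to 0.00. The split of altered genes then moved from 793 lower and 1543 higher to 1109 and 1044 with the former and 1101 and 921 with the latter. Under quantile normalization the log2 PTTG1 to ESPL1 difference was 0.46 instead of 0.36, and the SGOL1 to SGOL2 difference -0.01 instead of 0.02 (-0.12 to 0.10 with 1 library left out). For the other ratios the ranges with 1 library left out were -0.50 to -0.30 (STAG1 to STAG2), -0.23 to -0.11 (RAD21 to SMC3) and 0.29 to 0.42 (PTTG1 to ESPL1). Genes near 0 changed sign. STAG2 was -0.08 and SGOL1 -0.10 after quantile normalization, and -0.08 and -0.09 after upper-quartile scaling. With 1 library left out, STAG2 ranged from -0.04 to 0.10, SGOL1 from -0.05 to 0.04 and SGOL2 from -0.06 to 0.07. Same-numbered libraries of the 2 groups deviated from their group means with correlations of -0.00266, 0.0433 and 0.0481 across genes. Differently numbered libraries gave -0.0679 to 0.0311. With 3 libraries a group, these values cannot settle whether same-numbered libraries are pairs. A fit with the replicate block called 3 of the 10, STAG1 having an adjusted p of 0.0551, and 2310 of all genes. It called 6 of the wider list, with TIMELESS gained (adjusted p = 0.0363) and PLK1 lost (0.0643), and HRAS had 0.0526. The ratios were the same with the block. Depth was estimated here only relative to the first library, which limits what can be said of ESCO2 and other low genes.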

Other observations

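CDK1, the mitotic kinase that phosphorylates and restrains separase, was listed at 5.93, 2.99 and 2.13 FPKM in control and 3.23, 1.56 and 3.40 FPKM in Ras-induced libraries, although CCNB1, its cyclin, averaged 549.7 and 482 FPKM. The spread of CDK1 gave the widest interval of the wider list, from -1.12 to 0.54 on the log2 scale around -0.29 (limma adjusted p = 0.597). SGO1-AS1, whose exons cover 15.8% of the exonic bases of SGOL1 on the other strand, was listed at 0 in every library.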
